A study of Mus musculus with 20 samples.

Results

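The Nr4a nuclear receptors were taken as all probes, control spots left out, whose gene name on the array was Nr4a1, Nr4a2 or Nr4a3. They were 3 of 30222 gene names, read by 4 of 39429 probes and by 13 of the 43020 spots of an array that are not controls. Nr4a1 and Nr4a3 had 1 probe each, Nr4a2 had 2, and the Nr4a3 probe was printed 10 times. The arrays, 10 Agilent mouse arrays read in the colours Cy3 and Cy5, held RNA from cultured sensory neurons of E13.5 NIH Swiss mouse embryos. Each of 5 conditions filled 2 arrays with 4 samples. Neurons were left unstimulated or were fired for 2 hr or 5 hr, either 18 action potentials each min (18/1) or 90 in a burst once per 5 min (90/5). Pulses of 6 V and 0.2 ms were given across the barrier of a compartmented culture dish, so that both patterns delivered the same number of action potentials.

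All cultures, unstimulated ones included, had been plated in medium that held horse serum, treated with fluoro-2-deoxyuridine against dividing non-neuronal cells, and moved the night before to medium without serum. Unstimulated dishes were also fitted with electrodes, which were not attached. The methods call the 4 samples of a condition biological replicates and also give 5 pooled cultures per condition. How the pool relates to the samples is not given there, so p-values measure the spread between these samples. The labels call the cells dorsal root ganglion (DRG) neurons, but 1 protocol names spinal cords as the tissue. All 13 sensory neuron markers examined were well above background in all 20 samples, as were 1 of 4 markers of spinal motor neurons (Isl2, which sensory neurons also make), 5 of 7 glial (Erbb3 in no sample), 6 of 6 fibroblast, 4 of 5 macrophage and 1 of 3 endothelial markers. The cultures therefore held RNA of other cells beside neurons, and in such bulk RNA fewer cells of a type and less RNA per cell cannot be told apart.

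The arrays lay on 3 slides: unstimulated (arrays 1 and 2) and 18/1 2 hr (arrays 3 and 4) on slide 1, 18/1 5 hr (arrays 5 and 6) and 90/5 2 hr (arrays 7 and 8) on slide 2, and 90/5 5 hr (arrays 9 and 10) on slide 3. Only 18/1 2 hr against unstimulated and 90/5 2 hr against 18/1 5 hr share a slide, and for the other pairs of conditions slide and condition cannot be told apart. Signal over background of the median spot ranged from 2.27 to 2.94 on slide 1, from 3.64 to 10.4 on slide 2 and from 2.66 to 4.91 on slide 3. Slide 2 also stood apart in spots marked non-uniform, 45 to 14642 per sample against 6 to 85 on the other slides.

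NR4A proteins are nuclear receptors with no known hormone of their own, so that their activity follows largely from how much of them is made. Their genes are immediate early genes: they are transcribed soon after calcium entry, cyclic AMP or growth factors reach the cell, without new protein synthesis, in part through the transcription factor CREB, which binds cyclic AMP response elements (CREs) in their promoters. Nr4a1 (Nur77) responds to many stimuli in many tissues, Nr4a2 (Nurr1) is required for midbrain dopamine neurons, and Nr4a3 (Nor1) is their close relative. All bind DNA as monomers or dimers, and Nr4a1 and Nr4a2 also pair with retinoid X receptors.

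The promoters of the 3 genes are shown because the CRE is the element through which firing is best known to reach them. Each line gives the 250 bases before the gene's start, read 5′ to 3′ on the gene's strand from RefSeq on build GRCm38.p6, with capitals for the CRE half-site TGACG or its reverse complement CGTCA.
Nr4a1, chr15:101266596-101266845, plus strand: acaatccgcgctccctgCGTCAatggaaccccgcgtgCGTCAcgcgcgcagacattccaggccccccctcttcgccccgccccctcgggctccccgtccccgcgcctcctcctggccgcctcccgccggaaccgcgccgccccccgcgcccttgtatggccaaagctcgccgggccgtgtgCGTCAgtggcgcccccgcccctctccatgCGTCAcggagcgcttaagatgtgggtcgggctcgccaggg
Nr4a2, chr2:57124004-57124253, minus strand: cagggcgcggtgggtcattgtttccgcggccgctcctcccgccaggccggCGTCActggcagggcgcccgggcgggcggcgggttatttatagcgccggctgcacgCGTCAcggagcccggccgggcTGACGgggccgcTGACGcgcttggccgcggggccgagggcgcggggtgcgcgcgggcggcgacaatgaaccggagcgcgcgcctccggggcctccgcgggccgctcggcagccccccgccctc
Nr4a3, chr4:48045055-48045304, plus strand: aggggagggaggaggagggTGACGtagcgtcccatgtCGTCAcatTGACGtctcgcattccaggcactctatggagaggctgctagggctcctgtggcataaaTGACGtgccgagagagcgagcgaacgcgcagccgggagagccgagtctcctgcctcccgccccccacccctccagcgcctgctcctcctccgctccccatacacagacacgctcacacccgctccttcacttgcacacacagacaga

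Each of the 3 windows held 4 CRE half-sites. Of 32851 RefSeq promoter windows of the same length, 17.8% held at least 1 half-site on either strand and 45, or 0.137%, held at least 4. Among the 39 other nuclear receptors with a promoter in the table, 7 had a half-site and the highest count was 3. The half-sites began 40, 69, 213 and 233 bases before the start of Nr4a1, 111, 123, 144 and 200 bases before that of Nr4a2, and 147, 205, 213 and 231 bases before that of Nr4a3. The full CRE TGACGTCA was in none of the 3 windows and in 1.55% of all, and the NR4A proteins' own element AAAGGTCA, on either strand, was in none of the 3 and in 1.34% of all. The letters TATAAA, searched on both strands, were found once, in the Nr4a2 window on the opposite strand 164 bases before the start, and in 12.4% of all windows. A match is letters in a window and says nothing of binding in these cells.

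Levels are given as normalized log2 signal, on which a difference of 1 is a doubling of brightness. Near the background, differences on this scale come out smaller than those of the signal. Differences are between means of 4 samples, with the standard error (SE) of limma's fit, and a gene was called at a Benjamini-Hochberg adjusted p under 0.05 over all genes tested. A spot passed with a signal over background of 2 or more and no mark for non-uniformity. Nr4a1 passed in all 20 samples and was tested with 10355 genes. Nr4a2 passed in every stimulated sample but in no unstimulated one, and was tested with the 18744 genes that passed in all samples of at least 1 condition. A gene that enters in that way must be brighter somewhere, so passing is no result. Nr4a3 met neither rule and was tested with all 30222 gene names.

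Nr4a1 was higher in every stimulated sample than in any unstimulated one, 21.5 to 45.2 times on average, among the largest increases in every stimulated condition. Its probe, A_51_P239654, reads transcript NM_010444 (mm9 chr15:101105071-101105130). In unstimulated neurons the signal was low but measured in all 4 samples, 3.58 to 5.91 times the background, at log2 8.0 and 8.49 on array 1 and 8.03 and 8.81 on array 2 (Cy3 before Cy5, as throughout). The mean was 8.33 ± 0.39 (SD, n = 4).

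After 2 hr of 18/1 the values were 12.43 and 13.30 on array 3 and 13.21 and 12.51 on array 4 (mean 12.86 ± 0.45, SD, n = 4). After 5 hr of 18/1 they were 12.64, 12.76, 12.75 and 12.90 (12.76 ± 0.11). These 4 samples lay closest together of any stimulated condition. After 2 hr of 90/5 they were 12.75 and 13.59 on array 7 and 13.11 and 12.89 on array 8 (13.08 ± 0.37). After 5 hr of 90/5 they were 13.18 and 13.86 on array 9 and 14.24 and 14.05 on array 10 (13.83 ± 0.46), with both samples of array 10 above every sample of the other conditions. No spot of the probe was saturated, and stimulated signals were 86.7 to 565 times the background.

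**Figure D1:**
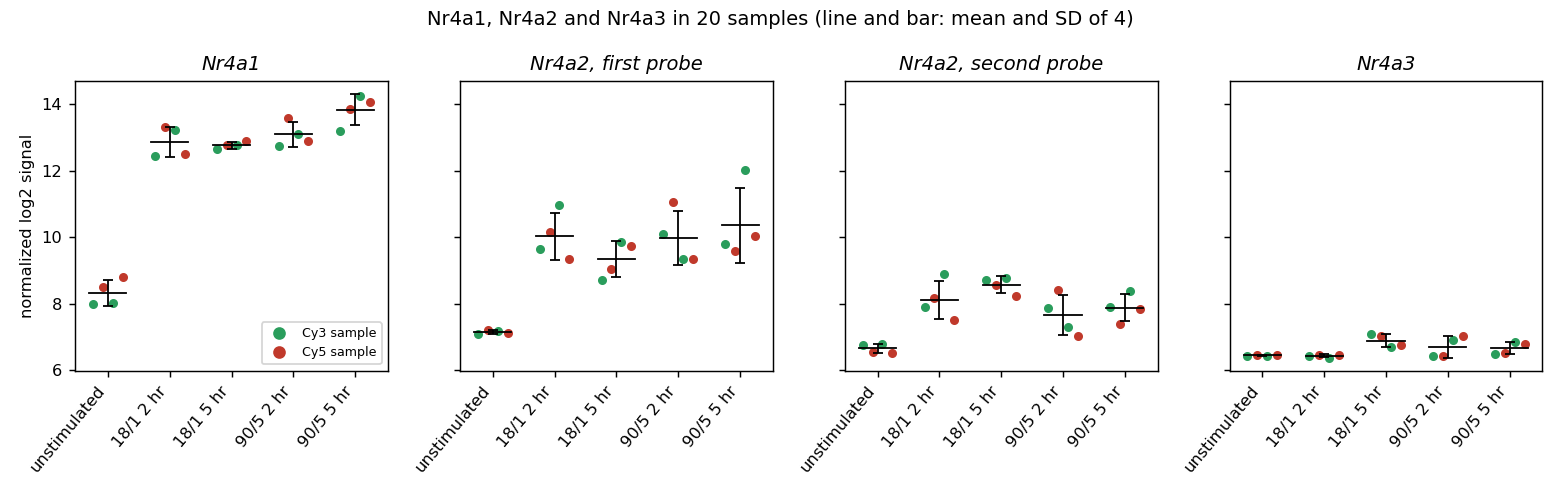
Normalized log2 signal of the 4 probes (vertical axis) in the 20 samples by condition (horizontal axis), Cy3 samples in green and Cy5 samples in red, with a line and bar for the mean and SD of 4. Nr4a1 goes from a mean of 8.33 to between 12.76 and 13.83, the first Nr4a2 probe from 7.14 to between 9.34 and 10.36, and Nr4a3 stays between 6.38 and 7.09.

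Against unstimulated neurons the difference was 4.53 after 2 hr and 4.43 after 5 hr of 18/1, and 4.75 after 2 hr and 5.50 after 5 hr of 90/5 (SE 0.374 each), or 23.1, 21.5, 26.9 and 45.2 times. The adjusted p was 4.5e-07, 1.72e-07, 1.81e-07 and 1.07e-08 in that order. These calls have very different backgrounds: 0.0193% of genes were called after 2 hr and 44.6% after 5 hr of 18/1, 7.03% after 2 hr and 0.0676% after 5 hr of 90/5. Nr4a1 was thus 1 of 2 genes called at 18/1 2 hr and 1 of 7 at 90/5 5 hr. All 4 stimulated samples lay above all 4 unstimulated ones in each comparison, as they did for 2.98%, 19.7%, 11.5% and 5.3% of genes. By size the increase ranked 10th of 10355 at 18/1 5 hr and first in the others. That table leaves out genes that are dim without stimulation. With the 18744 genes that pass within a condition Nr4a1 ranked 28th at 18/1 5 hr and 2nd in the others, behind Npas4, and with all 30222 it ranked 32nd and 2nd. Within slide 1 alone, 18/1 2 hr differed from unstimulated by the same 4.53 (adjusted p 7.46e-06), in a fit whose share of genes called was not counted.

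The study asked whether the grouping of the same number of action potentials matters. At 2 hr Nr4a1 differed between the patterns by 0.22, 90/5 above 18/1 (95% interval -0.55 to 1.00, adjusted p 0.786, where 5.02% of genes were called). At 5 hr it was higher under 90/5 by 1.07 (interval 0.29 to 1.85), or 2.1 times, with an adjusted p of 0.0241, and the samples did not overlap. That comparison sets slide 3 against slide 2, 45.5% of all genes were called in it and 28.7% had all 90/5 samples above all 18/1 samples, so Nr4a1 is 1 of very many. Its 5 hr call was lost without array 10 (difference 0.75, adjusted p 0.256), without array 5 (1.00, 0.0507), and without either single sample of array 10 (0.91 with 0.061, and 1.16 with 0.0533).

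Duration changed Nr4a1 by less than the test could call. Between 2 and 5 hr it moved by -0.10 under 18/1 (interval -0.88 to 0.68, adjusted p 0.847, 44.2% of genes called) and by 0.75 under 90/5 (-0.03 to 1.52, 0.236, 9.01% called). The remaining pairs were 90/5 2 hr against 18/1 5 hr within slide 2 (0.32, -0.45 to 1.1, adjusted p 0.592, 12.9% called) and 90/5 5 hr against 18/1 2 hr (0.97, 0.19 to 1.74, adjusted p 1, 0.0386% called). From lowest to highest the means ran unstimulated, 18/1 5 hr, 18/1 2 hr, 90/5 2 hr and 90/5 5 hr, and no neighbours in that order differed beyond their spread except unstimulated and 18/1 5 hr.

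Nr4a2 was also higher in every stimulated sample than in any unstimulated one, by both of its probes. As measured it rose by less than Nr4a1, but it was dim without stimulation, which understates its change. Both Nr4a2 probes read transcript NM_013613 on the minus strand of chromosome 2. The first, A_52_P494622, starts at base 2050 of the transcript (mm9 chr2:56960699-56960758) and was the brighter. The second, A_55_P1983508, starts at base 3112 (mm9 chr2:56959637-56959696). The first is shown because the values of Nr4a2 below are its own, with the whole probe in capitals.
Nr4a2, A_52_P494622: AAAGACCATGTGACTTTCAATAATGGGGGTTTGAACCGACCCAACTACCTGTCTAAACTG

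By the first probe, unstimulated neurons gave 7.08 and 7.20 on array 1 and 7.17 and 7.11 on array 2 (7.14 ± 0.06, SD, n = 4), well above background by the scanner's mark but only 1.38 to 1.82 times as bright as it. With 2 hr of 18/1 the values were 9.63, 10.16, 10.95 and 9.33 (10.02 ± 0.71), and after 5 hr 8.72, 9.05, 9.86 and 9.72 (9.34 ± 0.54). After 2 hr of 90/5 they were 10.10, 11.06, 9.35 and 9.35 (9.97 ± 0.81), and after 5 hr 9.80, 9.57, 12.03 and 10.03 (10.36 ± 1.13). The stimulated samples spread over 3 log2 units and overlapped between all 4 conditions, with the highest value in the Cy3 sample of array 10, which was also the highest for Nr4a1.

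The difference from unstimulated was 2.88 and 2.20 for 2 and 5 hr of 18/1 and 2.83 and 3.22 for 2 and 5 hr of 90/5 (SE 0.766 each), or 7.34, 4.59, 7.09 and 9.29 times. These folds start from a dim signal that passed in no unstimulated sample, so they understate the change. Among the 18744 genes Nr4a2 was called at 18/1 5 hr (adjusted p 0.0307, 37% of genes called) and at 90/5 2 hr (0.0374, 5.13%), both on slide 2. It entered that table only through stimulated samples, so these calls are a description, and among all 30222 gene names neither was called (0.091 and 0.145). It was not called at 18/1 2 hr (unadjusted p 0.00134, adjusted 1, 0.0213% called) or 90/5 5 hr (0.000487, adjusted 0.176, 0.149% called), although those differences were the larger: its p ranked 14th and 52nd of 18744. All stimulated samples lay above all unstimulated ones in each comparison, as for 2.65%, 19.6%, 11.2% and 6.28% of genes, a count that the way Nr4a2 entered also bears on. Within slide 1 alone, with its own smaller spread, Nr4a2 was called at 18/1 2 hr with the same difference (adjusted p 0.0104). It entered that fit too only through stimulated samples, so this call is also a description. The share of all genes called in that fit was not counted.

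Single arrays decide the calls of Nr4a2, and at 90/5 2 hr single samples do too. Its rise over unstimulated neurons kept its direction in all 30 fits without 1 sample or 1 array. The call at 18/1 5 hr was kept in all 20 fits without 1 sample (adjusted p at most 0.0474). It was lost without array 1, 2, 3 or 6 (adjusted p 0.15, 0.153, 0.0538 and 0.0692). The call at 90/5 2 hr was lost without array 1, 2, 3, 4, 8 or 9 (0.331, 0.303, 0.0825, 0.0595, 0.0502 and 0.0586), without any 1 unstimulated sample (0.0563 to 0.0617), and with the Cy5 sample left out of array 8 (0.0525) or of array 10 (0.0617). At 90/5 5 hr a call appeared without array 5, 6 or 7 (0.0332, 0.0321 and 0.0381).

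The second probe was dimmer, with a mean of 6.65 ± 0.13 in unstimulated neurons, where 1 of 4 samples was well above background. It reached 8.11 ± 0.58 and 8.57 ± 0.25 after 2 and 5 hr of 18/1, and 7.65 ± 0.61 and 7.88 ± 0.41 after 2 and 5 hr of 90/5, where 2 of 4 samples at 90/5 2 hr were well above background. The differences were 1.46, 1.91, 1.00 and 1.23 (SE 0.444), of which 18/1 5 hr was called (adjusted p 0.0029) and the others were not (1, 0.219 and 1). In that table, with every probe in a row of its own, 0.0167%, 37.3%, 4.4% and 0.117% of probes were called. The second probe, too, passed in no unstimulated sample and entered only through stimulated ones, so its call is a description. The probes disagree on which condition was highest: 90/5 5 hr by the first and 18/1 5 hr by the second.

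**Figure D2:**
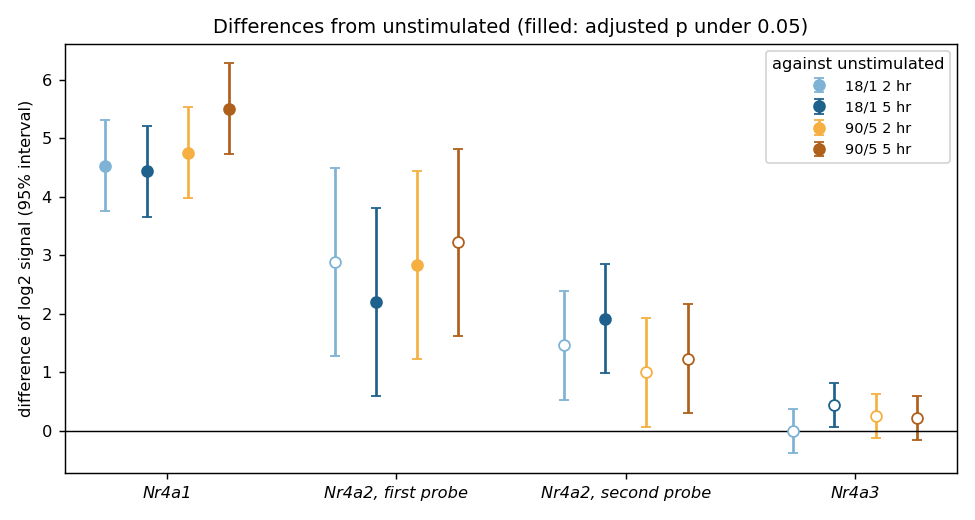
Difference of mean log2 signal from unstimulated neurons (vertical axis) for the 4 probes (horizontal axis), with the 95% interval of limma's fit, 1 point per stimulated condition, filled where the adjusted p was under 0.05. Intervals of Nr4a1 lie between 3.65 and 6.27, those of the first Nr4a2 probe between 0.60 and 4.82, and those of Nr4a3 between -0.39 and 0.82.

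Between patterns and between times Nr4a2 was not called by the first probe. The difference of 90/5 from 18/1 was -0.05 at 2 hr (interval -1.65 to 1.55, adjusted p 0.982, 3.92% of genes called) and 1.02 at 5 hr (-0.59 to 2.62, 0.31, 38.2% called). From 2 to 5 hr it was -0.68 under 18/1 (-2.28 to 0.92, 0.509, 36.4% called) and 0.39 under 90/5 (-1.21 to 1.99, 0.824, 7.9% called). By the second probe the pattern difference at 5 hr ran the other way (-0.69, adjusted p 0.232), as did that between the times under 18/1 (0.46, 0.438). Intervals of over 3 log2 units leave differences of several fold undetectable here.

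Nr4a3 was not measured above background in unstimulated neurons or after 2 hr of 18/1. Its probe, A_51_P128397, starts at base 1412 of NM_015743 and its 60 bases are placed over 3187 bases of the genome (mm9 chr4:48080690-48083876), so it reads across an intron. It is shown because its 10 spots are what the next values compare, with the whole probe in capitals.
Nr4a3, A_51_P128397: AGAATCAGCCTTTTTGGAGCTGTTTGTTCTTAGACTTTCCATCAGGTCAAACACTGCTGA

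Of the 40 spots of a condition (10 on each of 2 arrays, in 2 colours), 0 reached a signal over background of 2 in unstimulated neurons, and 0 after 2 hr of 18/1. There were 22 after 5 hr of 18/1, 13 after 2 hr of 90/5 and 6 after 5 hr of 90/5. Bright and dim spots lay on the same array, in shares that differed between arrays. On array 5, 6 of 10 spots reached 2 in both colours and 4 in neither, and the brightest reached 37.5 times its background. On array 8, 3 spots reached it in both colours, 5 in 1 colour and 2 in neither, with the brightest at 24.9 times. On array 10, 2 spots reached it in both and 8 in neither, with the brightest at 15.4 times, and on arrays 7 and 9 a single spot did.

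The same sequence thus gave unlike signals within 1 array. The SD between the 10 Nr4a3 spots was 0.96 to 1.02 log2 units on array 10 and 0.99 to 1.07 on array 8, against medians of 0.18 to 0.41 over the 399 probes printed 10 times. On those 2 arrays and array 9 the SD was above that of at least 97.5% of these probes. On array 5 the SD was largest, 1.05 and 1.12, but 93.7% and 90.5% of these probes were lower. On array 6, 65.4% and 61.7% were lower, and on array 7, 62.9% and 31.6%. On slide 1 the SD was 0.11 to 0.18, at or below the middle of the range of these probes in all but 1 of 8 samples, where 51.1% were lower. Of the bright conditions, 15 of 40 spots at 18/1 5 hr and 4 of 40 at 90/5 2 hr were marked non-uniform, and 0 at 90/5 5 hr.

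**Figure D3:**
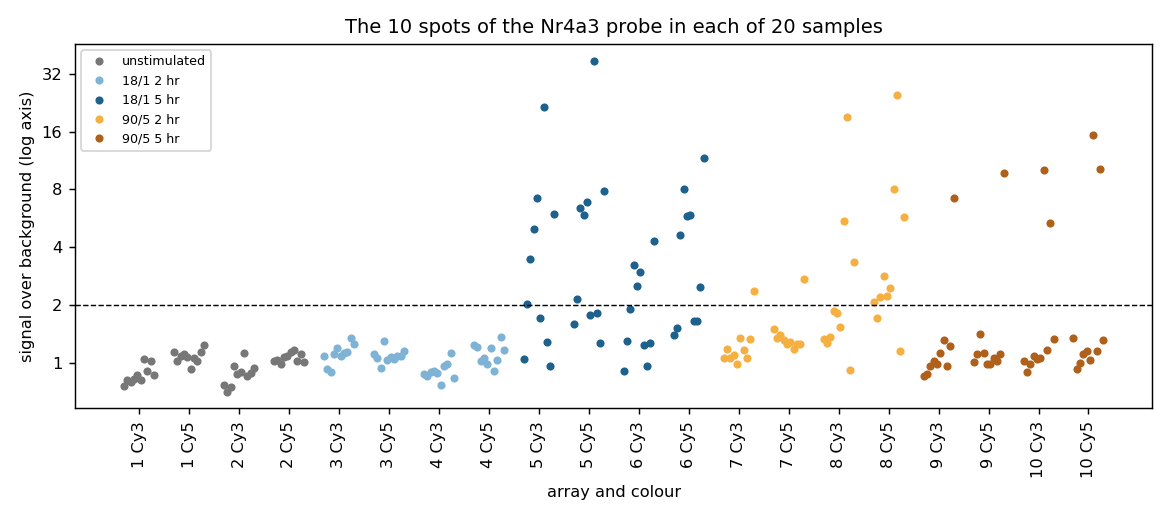
Signal over background (vertical axis, log scale) of each of the 10 spots of the Nr4a3 probe in each sample (horizontal axis, array and colour), coloured by condition, with a dashed line at 2. All spots of arrays 1 to 4 lie below the line, while on arrays 5 to 10 single spots rise to as much as 37.5 times the background.

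Averaged over its spots, Nr4a3 had a mean of 6.45 ± 0.01 in unstimulated neurons, 6.43 ± 0.04 and 6.88 ± 0.19 after 2 and 5 hr of 18/1, and 6.70 ± 0.32 and 6.66 ± 0.19 after 2 and 5 hr of 90/5 (SD, n = 4). The differences from unstimulated were -0.01, 0.44, 0.25 and 0.21 (SE 0.179), with adjusted p 1, 0.0801, 0.546 and 1, where 0.00662%, 25.8%, 1.67% and 0.0563% of genes were called. Unadjusted p was 0.949, 0.0252, 0.176 and 0.248. The 95% interval was 0.061 to 0.82 at 18/1 5 hr, -0.12 to 0.63 at 90/5 2 hr and -0.16 to 0.59 at 90/5 5 hr. With the median of the 10 spots in place of their mean, a choice made after the data were seen, the differences were -0.02, 0.20, 0.00 and -0.09. Nr4a3 was not called either between patterns or between times.

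Nr4a1 and Nr4a2 were compared within each sample, where a shift in log2 signal shared by both probes cancels. A probe near background does not shift equally, so the difference can still vary with the sample's brightness. From unstimulated to stimulated, Nr4a1 rose more than Nr4a2 by 1.65, 2.23, 1.93 and 2.28 log2 units at 18/1 2 hr, 18/1 5 hr, 90/5 2 hr and 90/5 5 hr. In each of these 4 comparisons all 4 stimulated samples lay above all 4 unstimulated ones. The 2-sided exact permutation test gave p = 0.0286 in each, the smallest that 4 samples against 4 allow, and 0.0286 after adjustment over the 12 comparisons of the 3 genes. No value is given for the 8 with Nr4a3, whose probe was not above background in unstimulated neurons and could not show an equal change. The test treats samples as independent, but both samples of an array share that array, so this p may be too small. Only the comparison at 18/1 2 hr stayed within a slide. The Nr4a2 probe was dim without stimulation, which understates its change, so these differences compare probes as measured and not molecules.

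Over the 8 stimulated arrays (mean of both colours), Nr4a1 and the first Nr4a2 probe had a Pearson r of 0.689 (exact permutation p 0.0626, adjusted over 3 relations 0.188) and a Spearman rho of 0.524 (p 0.197, adjusted 0.296). Without the 2 arrays farthest from the median of Nr4a1, r was 0.690, and over the 4 arrays of slide 2 it was 0.818. Nr4a1 and the second Nr4a2 probe had an r of -0.253 (exact permutation p 0.53, adjusted 0.795), with a rho of -0.690 (p 0.0694, adjusted 0.208). The 2 Nr4a2 probes, which read the same transcript, had an r of 0.0439 with each other (exact permutation p 0.919, adjusted 0.919) and a rho of 0 (p 1). None of the 3 relations passed, and the arrays fall on slides and conditions too few for values within each.

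**Figure D4:**
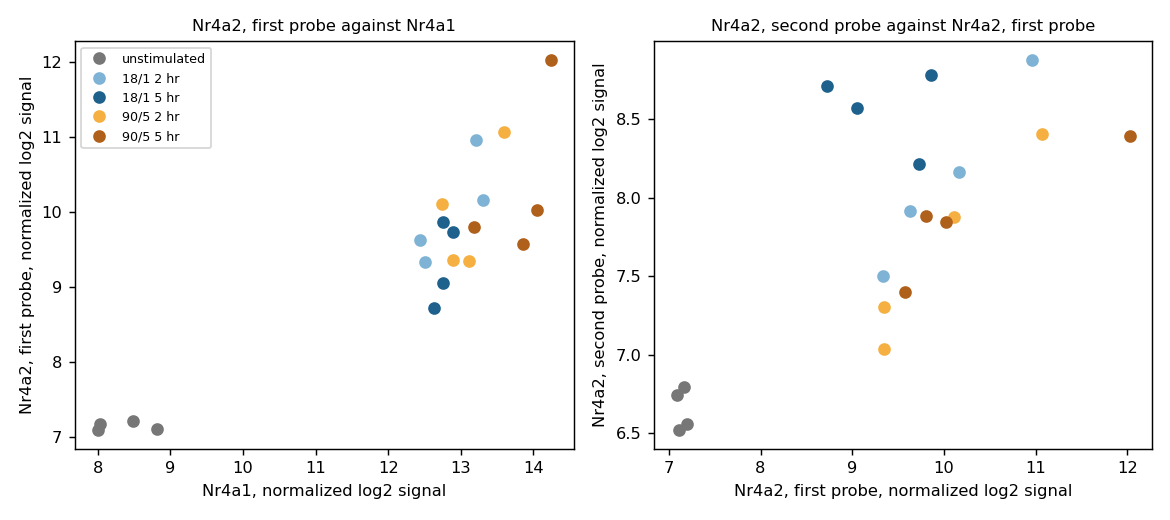
Normalized log2 signal of the first Nr4a2 probe against Nr4a1 (left) and of the second Nr4a2 probe against the first (right) in 20 samples, coloured by condition. Unstimulated samples lie apart at the lower left of both panels, and the 18/1 5 hr samples lie high on the second probe, between 8.22 and 8.78.

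The genes whose levels were most like those of each member over the 20 samples, by Pearson r and with members left out, are given as a description. For Nr4a1 they were Rgs2, a regulator of G protein signalling (r = 0.954), Socs3, an inhibitor of cytokine signalling (0.894), Gadd45b, a stress and DNA demethylation gene (0.843), Fam46a (0.830) and Bhlhe40, a transcriptional repressor (0.823), among 10354. For Nr4a2 they were C2cd4b (0.916), Npas4, an activity-dependent transcription factor of neurons (0.905), Areg, a ligand of the EGF receptor (0.902), Fosl2, an AP-1 subunit (0.886) and Rgs2 (0.853), among 18743. Nr4a1 itself would have ranked 4th for Nr4a2 (0.897).

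These r values rest mostly on the gap between unstimulated and stimulated samples. Over the 16 stimulated samples r was 0.419 for Nr4a1 and Rgs2 and 0.795 for Nr4a2 and Areg, and the best rank of any of these 9 genes was then 123, that of Areg. Npas4 had means of 7.41 in unstimulated neurons and 12.03, 12.20, 13.03 and 13.21 at 18/1 2 hr, 18/1 5 hr, 90/5 2 hr and 90/5 5 hr. For Nr4a3 the genes were BC048644, Drd4, Adam5, the transcript ENSMUST00000138402 and Prrt1 (0.953 to 0.917 among 30221), and its r was 0.365 with Nr4a1 and 0.129 with Nr4a2. Over the 12 samples of slides 1 and 3 these genes ranked only 183, 751, 709, 1763 and 1358 (r = 0.962, 0.848, 0.855, 0.721 and 0.766). The samples share slides, which differ in brightness.

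The other nuclear receptors, 45 genes for hormone and orphan receptors, showed how the Nr4a genes compare with their superfamily. Of the 45, 18 passed in all samples and were tested. After 2 hr of 18/1 and after 5 hr of 90/5 limma called 0 of 18, where 0.0193% and 0.0676% of all genes were called. Below an unadjusted p of 0.05 were 0 of 18 in each, beside 0.898% and 3.69% of all genes. At 90/5 2 hr 1 rose and 0 fell, where 7.03% of all genes were called. At 18/1 5 hr 6 rose and 2 fell, a share of the 18 to be read against 44.6% of all genes called there. Their median difference was -0.08, 0.55, 0.21 and 0.09 at 18/1 2 hr, 18/1 5 hr, 90/5 2 hr and 90/5 5 hr, beside -0.0047, -0.23, -0.08 and -0.01 over all genes tested. Their largest difference was 0.41, 1.72, 1.76 and 0.81 in that order, below that of Nr4a1 each time. With the filter within a condition the largest at 18/1 5 hr was that of Esrrb, an orphan receptor of the oestrogen-related group (12.37 ± 1.83 against 8.21 ± 0.15, difference 4.17, adjusted p 0.000261). Esrrb, named after its value was seen, thus lay near the 4.43 of Nr4a1 and above the 2.20 of Nr4a2.

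Rxrg, a retinoid X receptor of the kind with which Nr4a1 and Nr4a2 pair, had the largest difference of the list at 90/5 2 hr (14.86 ± 0.45 against 13.10 ± 0.19, difference 1.76, adjusted p 0.00116) and rose by 1.72 at 18/1 5 hr (adjusted p 0.000195), both on slide 2, where its spot was saturated in 2 and 3 of the 8 samples compared. At 18/1 2 hr and 90/5 5 hr its differences were -0.16 and -0.30 (adjusted p 1 each). At 18/1 5 hr Nr2f2, an orphan receptor, rose by 1.65 (adjusted p 0.000247), the retinoic acid receptors Rarb by 1.41 (0.000658) and Rarg by 1.17 (0.00136), the thyroid hormone receptor Thra by 1.06 (0.0117) and the glucocorticoid receptor Nr3c1 by 1.03 (0.0113). The oxysterol receptor Nr1h2 fell by 0.82 (0.00871) and Ppard by 0.67 (0.0206). With the filter within a condition 17 of 33 receptors were called at 18/1 5 hr, where 37% of all genes were, and with no filter 14 of 45, where 25.8% were.

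**Figure D5:**
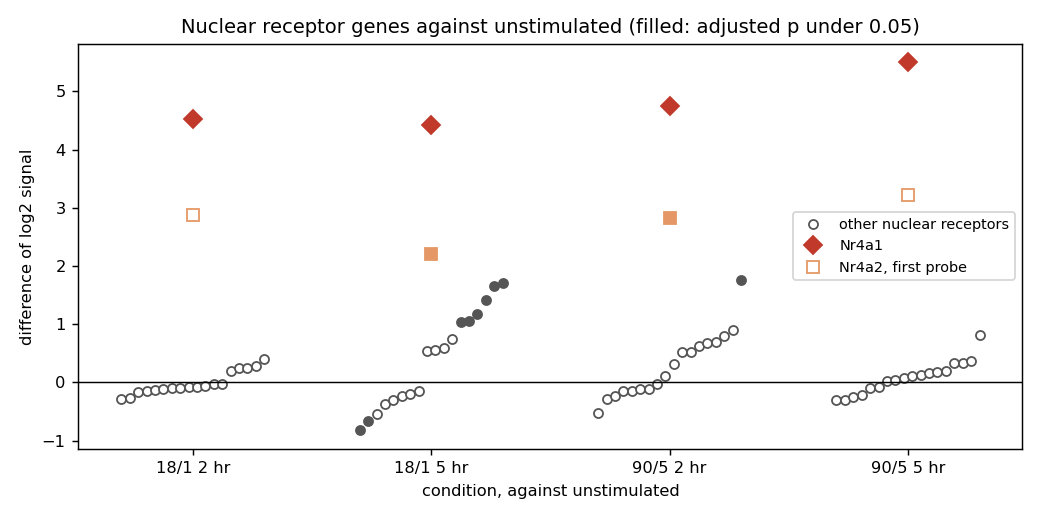
Difference of log2 signal from unstimulated neurons (vertical axis) in the 4 stimulated conditions (horizontal axis) for the 18 other nuclear receptors that passed in all samples (circles), Nr4a1 (diamonds) and the first Nr4a2 probe (squares), filled where the adjusted p was under 0.05. Nr4a1 lies between 4.43 and 5.50 and the circles reach at most 1.76.

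Partners and regulators of NR4A proteins, 14 of 18 tested, held 0 calls of limma after 2 hr of 18/1 and after 5 hr of 90/5. Of all genes, 0.0193% and 0.0676% were called there. Below an unadjusted p of 0.05 were 0 of 14 in each, beside 0.898% and 3.69% of all genes. At 90/5 2 hr 1 rose, Rxrg, where 7.03% of all genes were called. At 18/1 5 hr 1 rose, Rxrg again, and 5 fell, among them Stk11, a kinase of energy sensing (difference -1.70, adjusted p 8.01e-05), Rcor1, a corepressor (-1.70, 0.00537, on samples with an SD of 1.26) and Trim28, a corepressor of zinc finger proteins (-1.66, 0.00042). These 6 of 14 stand beside 44.6% of all genes called at 18/1 5 hr. The median of the list was -0.21, -0.35, -0.27 and -0.09, beside the -0.0047, -0.23, -0.08 and -0.01 of all genes.

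A further list held genes taken as upstream of the Nr4a promoters, such as kinases, calcium sensors and transcription factors, a role not tested here. Of its 37 genes 26 were tested, with 0 calls of limma after 2 hr of 18/1 and after 5 hr of 90/5. Of all genes, 0.0193% and 0.0676% were called there. Below an unadjusted p of 0.05 were 0 and 2 of the 26, beside 0.898% and 3.69% of all genes. At 18/1 5 hr 6 rose and 4 fell, and at 90/5 2 hr 1 rose and 1 fell. These 10 and 2 of 26 stand beside 44.6% and 7.03% of all genes called. Mef2a, a calcium-responsive transcription factor, rose by 2.24 at 18/1 5 hr (12.64 ± 0.78 against 10.40 ± 0.44, adjusted p 1.33e-05) and by 1.91 at 90/5 2 hr (0.00044). At 18/1 5 hr Ppp3cb, a catalytic subunit of calcineurin, rose by 1.69 (0.000248, its spot saturated in 2 samples) and Crebbp, the coactivator of CREB, by 1.29 (0.00154), while Prkaca, a catalytic subunit of protein kinase A, fell by 1.60 (0.00044). The median of the list was -0.17, 0.10, -0.11 and -0.08.

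Of 23 genes described elsewhere as targets of NR4A proteins, 4 were tested: Bdnf, Dlk1, Grp and Pomc. Bdnf, a neurotrophin, rose by 2.37 at 18/1 5 hr (12.89 ± 0.32 against 10.52 ± 0.17, adjusted p 7.44e-06) and by 1.19 at 90/5 2 hr (0.0191). Its differences of 0.92 at 18/1 2 hr and 1.43 at 90/5 5 hr were not called (adjusted p 1 and 0.0946). Pomc, a hormone precursor whose promoter NR4A proteins bind in the pituitary, fell by 1.26 at 18/1 5 hr (adjusted p 0.0143). After 2 hr of 18/1 and 5 hr of 90/5 limma called 0 of 4, where 0.0193% and 0.0676% of all genes were called. Below an unadjusted p of 0.05 were 1 and 2 of the 4, beside 0.898% and 3.69% of all genes. At 90/5 2 hr 1 of 4 was called, beside 7.03% of all genes. The 2 of 4 called at 18/1 5 hr stand beside 44.6% of all genes. With the filter within a condition 17 of the 23 could be tested, and 4 were called at 18/1 5 hr, where 37% of all genes were.

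The condition in which most of these lists moved, 18/1 5 hr, also differed in markers of other cells. The mean log2 level of the 6 fibroblast markers was 11.88 there, against 11.12 in unstimulated neurons and 10.98 to 11.32 in the other conditions. That of 3 endothelial markers was 7.46 against 8.90, and that of 7 glial markers 9.42 against 9.82. At 90/5 2 hr, also on slide 2, these 2 means were lower than in unstimulated neurons too, 7.996 and 9.626. At 18/1 2 hr and 90/5 5 hr they were 8.815 and 9.063 for endothelium, and 9.818 and 9.907 for glia. The macrophage mean was 10.07 at 18/1 5 hr against 10.08. Of the fibroblast markers Pdgfra alone fell there (7.355 to 7.15), and of the glial ones Fabp7 alone did not fall (9.027 to 9.028). Sensory neuron markers ranged from 14.81 to 14.96 over the 5 conditions. The part of other cells in the results at 18/1 5 hr was not tested.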

How the data were processed

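The authors deposited, for each spot and colour, the mean intensity and the median local background intensity on a linear scale, not normalized, extracted with Agilent Feature Extraction 10.7.1.1 (slide 1) or 10.7.3.1 per the file headers. Its 3 marks per spot (saturation, uniformity, level above background) were read unchanged, and the other 36 columns of each colour were not used. In R 4.3.3 with limma 3.58.1 and statmod 1.5.0, background was subtracted by normexp (offset 50), colours were normalized by loess and arrays by Aquantile. Spots of a probe were averaged, and the brightest probe stood for a gene name. A linear model over all 20 samples had a mean per condition, a colour term and the array as a random block (correlation 0.529 among 10355 genes, 0.639 among 18744 and 0.739 among 30222), with empirical Bayes moderation and Benjamini-Hochberg adjustment within each comparison. Genes were tested with the filter in all 20 samples, else in 1 condition, else with none. Figures were drawn in Python 3.11.15 with matplotlib 3.10.9 and numpy 2.4.6.

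The members, and the lists of other genes, were chosen with earlier results of these data known. Named genes were all members, the 5 genes most alike to each, and up to 4 called genes of a list by size of difference; the further receptors named beside them were added after their values were seen. With 2 arrays per condition, precision is limited by their number. For 18/1 5 hr and 90/5 2 hr both samples of an array carry the same dye in the labels, so samples are named by array and colour, without replicate numbers. Alternatives covered background, normalization, filters, saturated spots, probes, colour, array, slide, replicate number, the methods' t-test and leaving out samples and arrays. The second Nr4a2 probe and the median of the Nr4a3 spots were added after the data were seen. The fit was tested on simulated data. Probe positions are those of the files (mm9), promoters those of RefSeq, where all 3 genes matched by symbol.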

Additional observations from a re-analysis of the deposited data

Results flagged for a closer look

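Nr4a1 differed between the patterns at 5 hr, 90/5 above 18/1 by 1.069 log2 units (limma with Benjamini-Hochberg adjustment, adjusted p 0.0241). The 4 samples of 90/5 lay between 13.18 and 14.24 and those of 18/1 between 12.64 and 12.90. The slides differ between these conditions, and the part of the slide in the difference cannot be told apart from that of the pattern. In none of the 20 groups of 4 samples (4 probes in 5 conditions) did a single sample stand far enough from the others to be marked as an outlier.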

How the results depend on the processing

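The rise of Nr4a1 over unstimulated neurons was called in all 30 fits without 1 sample or 1 array in each stimulated condition, and lost its call only when p-values of the methods' t-test were adjusted over all genes (4.54 with adjusted p 0.555 at 18/1 2 hr, 4.75 with 0.085 at 90/5 2 hr, 5.51 with 0.199 at 90/5 5 hr). Its pattern difference at 5 hr lost its call under that test (1.12, 0.0794), and at an unchanged 1.07 with the filter within a condition (0.06) and with no filter (0.14), which test more genes. It ranged from 0.75 to 1.38 without 1 sample or array. Differences of Nr4a1 that were not called ranged from -0.34 to 0.13 (18/1, 5 hr minus 2 hr) and from -0.015 to 0.46 (2 hr, 90/5 minus 18/1). With no array block, 90/5 5 hr minus 2 hr, 0.75, was called (adjusted p 0.0311). With each sample only centred on its median, 90/5 2 hr minus 18/1 5 hr, which share a slide, was called at 1.03 (0.0268) in place of 0.32. The methods' t-test unadjusted passed 90/5 5 hr minus 18/1 2 hr (0.97, p 0.033).

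For Nr4a2 at 90/5 5 hr a call appeared at 3.22 with no array block, with only the conditions compared and with slide 2 left out, and at 3.43 with each sample only centred on its median, where 90/5 minus 18/1 at 5 hr, 1.75, was called too. At 18/1 2 hr a call appeared at 2.88 with no array block and within its slide, and at 3.01 under the methods' t-test unadjusted. At 18/1 5 hr the call was lost with no filter (2.20) and under the methods' t-test with adjustment (2.27), and at 90/5 2 hr with no filter or saturated probes left out (2.83) and under the methods' t-test (3.01, unadjusted p 0.0659, adjusted 0.206). By the second probe, 90/5 2 hr minus unstimulated, 1.00, was not called, and signs turned for 18/1 5 hr minus 2 hr (0.46), 90/5 2 hr minus 18/1 5 hr (-0.91), 90/5 5 hr minus 18/1 2 hr (-0.23) and 90/5 minus 18/1 at 5 hr (-0.69). Without 1 sample or array the rise ranged from 1.75 to 2.65 at 18/1 5 hr, from 2.21 to 3.44 at 90/5 2 hr and from 2.55 to 3.88 at 90/5 5 hr. Differences among stimulated conditions ranged from -0.67 to 0.57 (2 hr, 90/5 minus 18/1), from -0.33 to 1.01 (90/5 5 hr minus 18/1 2 hr) and from -0.28 to 1.06 (90/5, 5 hr minus 2 hr).

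For Nr4a3, 18/1 5 hr was called against unstimulated and against 18/1 2 hr with no background subtraction (0.75 and 0.68), with no array block (0.44 and 0.45) and by the methods' t-test unadjusted (0.45 and 0.46). With no background subtraction the sign turned at 18/1 2 hr (0.067). With each sample only centred on its median, signs turned for 90/5 2 hr (-0.20) and 90/5 5 hr (-0.19) against unstimulated, for both against 18/1 2 hr (-0.14 and -0.13) and for 90/5 5 hr minus 2 hr (0.014). With the median of the 10 spots they turned for 90/5 5 hr against unstimulated (-0.086) and 18/1 2 hr (-0.067). Without 1 sample or array, differences from unstimulated ranged from -0.027 to 0.0054 at 18/1 2 hr, from 0.27 to 0.60 at 18/1 5 hr (called without array 6, 7 or 8) and from -0.021 to 0.53 at 90/5 2 hr (called without array 7). The others ranged from 0.28 to 0.62 (18/1, 5 hr minus 2 hr), from -0.0095 to 0.54 (2 hr, 90/5 minus 18/1), from -0.46 to 0.088 (90/5 2 hr minus 18/1 5 hr) and from -0.31 to 0.24 (90/5, 5 hr minus 2 hr). The cause of these changes was not tested.

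With a replicate block over the 3 conditions whose samples can be numbered, Nr4a2 was called at 18/1 2 hr (2.88, adjusted p 0.0251) and 90/5 5 hr (3.22, 0.00263), and the block changed no other call of the members. The numbers were not taken as pairing: same-numbered samples had correlations of -0.0529 to 0.716, 9 of 12 over 0.1, and 10 of 12 samples were closest to their own number, but each number stands for 1 colour. The 2 arrays per condition and the dim signal of Nr4a3, not above background in unstimulated neurons, limit what these arrays can show.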
